A study of Mus musculus with 6 samples.

Results

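Synaptic vesicle and release genes were followed in mouse brain tumours: 33 genes of the machinery that fills, docks, fuses and recycles transmitter vesicles, chosen by symbol. All 33 had a row among the 34591 gene rows counted. The RNA-seq series holds 3 libraries labelled sh2-Ift88 and 3 labelled control, all described as a medulloblastoma model in mouse brain. A medulloblastoma is a tumour of the hindbrain, and sh2-Ift88 names a hairpin that targets Ift88, whose protein belongs to the transport complex that builds the primary cilium. The series design text calls both groups WNT medulloblastoma, and that label is what the groups share. The sources used here do not give strain, age, the promoter behind the hairpin, the cells that carry it or the number of animals. The p-values below therefore measure the spread between these libraries, which may be technical in part.

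In a nerve terminal the vesicle protein synaptobrevin (Vamp1, Vamp2) zips together with syntaxin (Stx1a) and Snap25 on the plasma membrane into the SNARE complex, which pulls the membranes together. Synaptotagmins sense calcium and complexins hold the complex ready, while Rims, Munc13 proteins (Unc13a, Unc13c), Bassoon (Bsn) and Piccolo (Pclo) organise and prime vesicles at the active zone. Vesicles are loaded with glutamate by Slc17a6 and Slc17a7 or with GABA by Slc32a1, and in cerebellum most of these genes are transcribed by mature granule, Purkinje and inhibitory neurons rather than by dividing cells.

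Gene counts summed to between 26802618 and 33772559 per library. Levels are given as CPM, read counts set against library size and scaled with TMM factors, a correction for libraries in which a few genes take many reads. Those factors were 1.05, 1.09 and 0.598 in sh2-Ift88 1, 2 and 3, and 1.07, 1.10 and 1.24 in control 1, 2 and 3. In sh2-Ift88 3 the top 10 rows held 50.9% of counts, against 13.9% to 19.8% in the other 5 libraries. Reads were found on 564 and 387 of 1249 olfactory receptor rows in sh2-Ift88 2 and 3 and on 492 in control 2, against 31 in sh2-Ift88 1 and 24 and 38 in control 1 and 3. Ift88 itself stood at 14.7, 16.0 and 14.4 CPM in sh2-Ift88 1, 2 and 3, against 13.8, 19.7 and 13.7 CPM in control 1, 2 and 3. The targeted transcript was thus not lower beyond the spread (log2 fold change -0.06, standard error 0.27), and the labels stand unchecked. The WNT target Axin2 was at 320 to 509 CPM in sh2-Ift88 libraries and at 327 to 764 CPM in controls.

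Promoter windows of the genes are shown first, and the part of any motif in the levels was not tested. RefSeq windows (GRCm38.p6, a later build than the mm9 named for the counts) run from 250 bases before to 50 after a transcript start and were matched by symbol for 28 of the 33 genes. The letters TTCAGCACC, the left part of the RE1 element that the neuronal repressor REST reads, stood on either strand in 2 of these 28 genes (7.14%) and in 0.433% of 27025 genes with a window. The cyclic AMP response element TGACGTCA stood in 1 of 28 (3.57%) and in 2.03% of all genes. CGCATGCG, the core of the NRF-1 site, stood in 2 of 28 and in 2.07% of all. This core was taken after a longer form, which Bsn held and Syn1 did not, had been searched. Its share among the 28 was therefore not set in advance. The E-box CAGCTG stood in 9 of 28 (32.1%) and in 18.3% of all. Of the 28 genes, 21 had their 2 lowest levels in sh2-Ift88 3 and control 1. The E-box stood in 6 of these 21 and in 3 of the other 7. The other motifs were held by Syn1, Unc13a and Bsn alone, all among the 21, too few genes to read a link from. The median share of G and C in the windows was 61.3% for the release genes and 52.8% for all genes. The motif shares were not adjusted for that difference. A match is a description of these letters and not of binding. The 4 windows below were picked to show each motif, in capitals: Syn1 opens with the NRF-1 core and then holds the RE1 part and the cyclic AMP element, Unc13a holds the RE1 part read on the opposite strand, Bsn holds the NRF-1 core at 2 places and then an E-box, and Unc13c, the gene with the smallest p between the groups, holds an E-box. No motif overlaps another in them.
Syn1 (chrX:20920869-20921168, minus strand): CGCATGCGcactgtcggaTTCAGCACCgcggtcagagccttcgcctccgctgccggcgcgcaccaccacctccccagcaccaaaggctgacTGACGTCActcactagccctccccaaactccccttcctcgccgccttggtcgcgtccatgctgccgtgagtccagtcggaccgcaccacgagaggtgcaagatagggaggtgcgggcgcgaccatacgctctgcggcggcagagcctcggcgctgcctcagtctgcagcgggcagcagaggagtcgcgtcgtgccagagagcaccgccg
Unc13a (chr8:71671708-71672007, minus strand): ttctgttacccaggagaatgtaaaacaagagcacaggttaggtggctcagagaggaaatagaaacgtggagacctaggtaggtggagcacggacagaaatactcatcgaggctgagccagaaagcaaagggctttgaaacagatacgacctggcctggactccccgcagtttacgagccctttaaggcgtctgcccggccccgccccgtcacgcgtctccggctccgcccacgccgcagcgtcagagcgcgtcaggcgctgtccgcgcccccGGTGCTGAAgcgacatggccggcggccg
Bsn (chr9:108190334-108190633, minus strand): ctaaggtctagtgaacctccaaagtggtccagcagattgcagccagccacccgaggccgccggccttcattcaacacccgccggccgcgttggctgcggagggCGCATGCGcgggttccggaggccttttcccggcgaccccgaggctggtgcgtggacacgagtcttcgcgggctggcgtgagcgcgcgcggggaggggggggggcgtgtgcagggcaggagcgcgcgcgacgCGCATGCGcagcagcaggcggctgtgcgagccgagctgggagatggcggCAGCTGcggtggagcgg
Unc13c (chr9:73968988-73969287, minus strand): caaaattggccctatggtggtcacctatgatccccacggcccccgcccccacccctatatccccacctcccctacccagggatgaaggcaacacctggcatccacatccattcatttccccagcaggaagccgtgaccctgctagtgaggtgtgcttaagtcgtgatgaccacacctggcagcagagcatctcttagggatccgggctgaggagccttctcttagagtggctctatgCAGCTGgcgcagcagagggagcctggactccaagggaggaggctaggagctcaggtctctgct

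Most release genes differed more between libraries of 1 group than between the groups. For 28 of the 32 tested, the difference of the group means in CPM was smaller than the larger of the 2 SDs, and Syt11, Sv2b, Sv2c and Unc13c were the exceptions. The same count was not made over all genes, so it does not set the release genes apart from them. For 25 of the 33 genes the levels in sh2-Ift88 3 and in control 1 were both below those of every other library, and 12% of all 16768 genes tested had the same pair at the bottom. This pair was known from Snap25 before the count was made, and Snap25 is in the list, so the share is a description with no test. In bulk tumour RNA, fewer cells of a type and less RNA per cell cannot be told apart. By library totals alone, without TMM, the pair was at the bottom for 26 of the 33 and for 21.5% of all genes. Control 3 had the highest level for 26 of the 33 genes, a count that was not made over all genes. As a median over the 32 genes with reads in control 3, levels stood at 52.9%, 33.9% and 12.1% of the control 3 level in sh2-Ift88 1, 2 and 3, and at 12.8% and 46.0% of it in control 1 and 2. The order of these medians from control 3 down to the low pair crosses the labels. Control 3 stood alone at the top, sh2-Ift88 1 came next, and the low pair holds a library of each group.

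**Figure D1:**
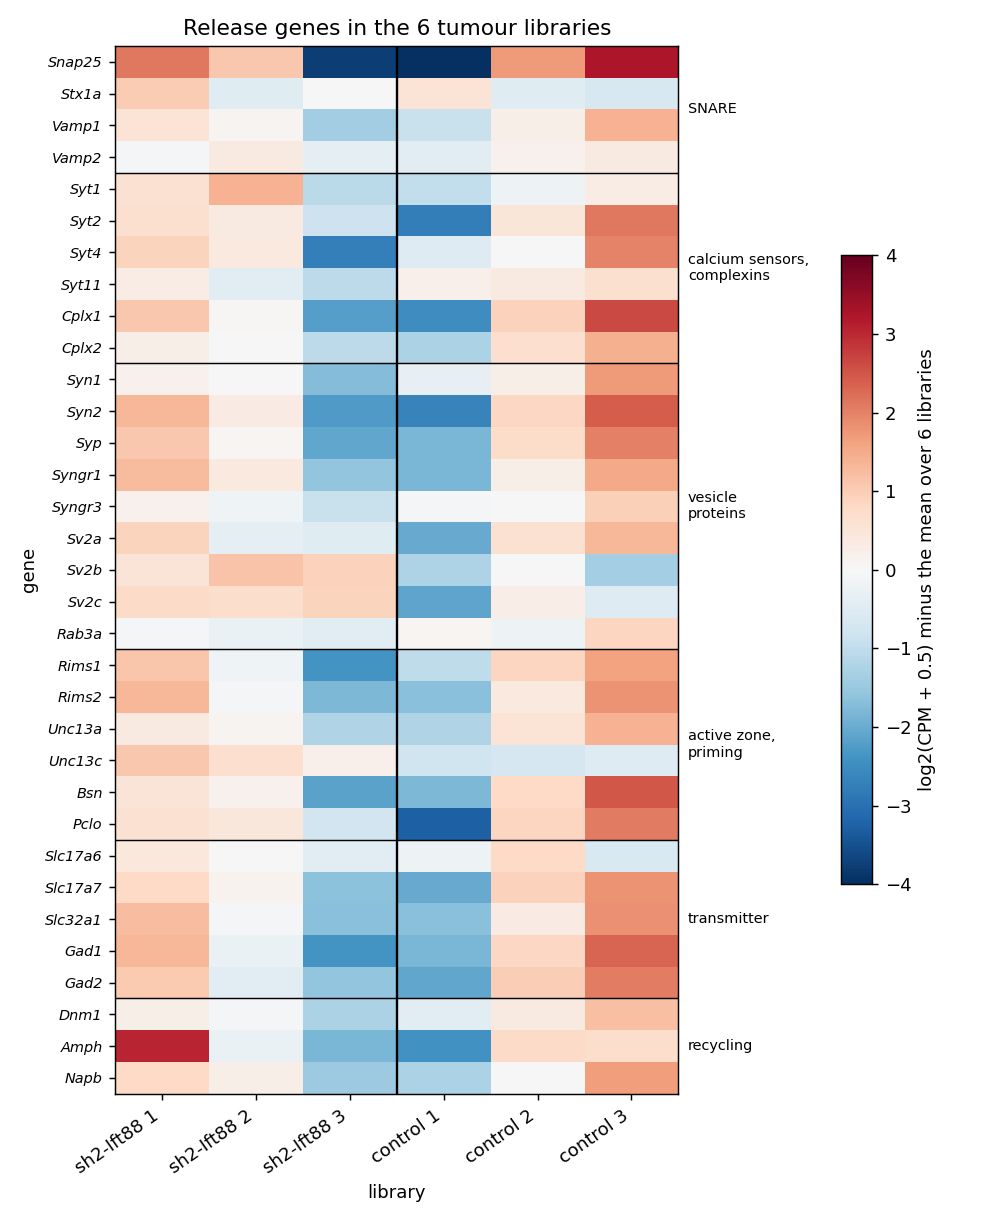
Heat map of the 33 release genes (rows, grouped by role) in the 3 sh2-Ift88 and 3 control libraries (columns), with colour for log2(CPM + 0.5) minus the gene's mean over the 6 libraries. Columns sh2-Ift88 3 and control 1 are blue for most rows, 25 of 33 having their 2 lowest values there, while the rows of Sv2b, Sv2c and Unc13c are reddest in the sh2-Ift88 columns.

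Among the SNARE genes, Snap25 had the widest range of all 33. It stood at 90.4, 44.3 and 1.06 CPM in sh2-Ift88 1, 2 and 3, against 0.545, 68.0 and 199 CPM in control 1, 2 and 3. The reads behind the 2 low values numbered 17 in sh2-Ift88 3 and 18 in control 1. The lowest of the other 4 libraries was 41.7 times the higher of this pair. Vamp1, the synaptobrevin of brainstem and spinal terminals among others, had the same pair at the bottom, at 9.76, 7.06 and 2.19 CPM in sh2-Ift88 1, 2 and 3 and 3.24, 7.67 and 17.8 CPM in control 1, 2 and 3. Vamp2, the main synaptobrevin of forebrain, had that pair at the bottom with the narrowest range of the 33: it was at 18.4, 24.3 and 14.2 CPM in sh2-Ift88 1, 2 and 3 and at 13.9, 21.3 and 24.3 CPM in control 1, 2 and 3. Stx1a did not follow. It was at 23.0, 7.76 and 11.1 CPM in sh2-Ift88 1, 2 and 3 and at 16.4, 7.81 and 6.97 CPM in control 1, 2 and 3, so that control 3, the highest library for Snap25, was the lowest for its SNARE partner.

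The calcium sensors were not uniform. Syt1, the fast sensor of forebrain synapses, was at 39.8, 69.3 and 11.99 CPM in sh2-Ift88 1, 2 and 3, against 12.8, 22.4 and 31.8 CPM in control 1, 2 and 3, and it peaked in sh2-Ift88 2 rather than in control 3. Per unit of Snap25, Syt1 stood at 0.441, 1.57 and 11.3 in sh2-Ift88 1, 2 and 3 and at 23.5, 0.330 and 0.160 in control 1, 2 and 3. Syt1 thus kept 11.99 and 12.8 CPM in the libraries where Snap25 was near 1 CPM. Syt2, the fast sensor of hindbrain synapses, was at 21.1, 17.3 and 7.37 CPM in sh2-Ift88 1, 2 and 3 and at 1.58, 19.2 and 59.4 CPM in control 1, 2 and 3. Syt4, a synaptotagmin that binds calcium poorly through one of its domains, was lowest in sh2-Ift88 3 at 0.625 CPM (10 reads), with 4.76 CPM in control 1, and its highest level was 29.4 CPM in control 3. Syt11, a relative that does not act as a calcium sensor, did not follow: sh2-Ift88 1, 2 and 3 had 36.5, 22.0 and 14.1 CPM, against 34.4, 38.8 and 46.6 CPM in control 1, 2 and 3. Control 1, at the bottom for Snap25, thus lay beside sh2-Ift88 1 for Syt11. Of the complexins, Cplx1 had 4 reads in each of sh2-Ift88 3 and control 1 (0.250 and 0.121 CPM), against 3.13 to 21.5 CPM in the other libraries, while Cplx2 kept 13.4 and 11.5 CPM in that pair, against 28.4 to 77.3 CPM elsewhere.

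Of the 9 proteins of the vesicle membrane or bound to it, 5 followed the pair. Syp, the synaptophysin used as a vesicle marker, was at 16.4, 7.86 and 1.37 CPM in sh2-Ift88 1, 2 and 3 and at 1.76, 12.8 and 32.0 CPM in control 1, 2 and 3. Syn2, a synapsin that tethers vesicles in reserve, was at 10.9, 5.14 and 0.437 CPM in sh2-Ift88 1, 2 and 3 and at 0.212, 7.45 and 23.8 CPM in control 1, 2 and 3. Syn1, its relative, had 0 reads in sh2-Ift88 3, which allows up to 0.187 CPM at 3 counts, and 27 reads (0.818 CPM) in control 1, against 1.14 to 4.94 CPM in the other 4. These floors cover counting error only. Syngr1, a synaptogyrin, also followed, with 4.62 and 3.79 CPM in sh2-Ift88 3 and control 1 and at least 17.1 CPM in the others. Sv2a, the vesicle glycoprotein that binds levetiracetam, followed by the narrowest margin: it was at 11.2 CPM in sh2-Ift88 3 and 3.57 CPM in control 1, with 12.3 CPM in sh2-Ift88 2 next. Just outside that margin, Syngr3, another synaptogyrin, was at 3.48, 2.59 and 1.37 CPM in sh2-Ift88 1, 2 and 3 and at 2.82, 3.02 and 6.35 CPM in control 1, 2 and 3, so that sh2-Ift88 2 lay below control 1. Rab3a, the small GTPase that brings vesicles to Rims, did not follow either and was among the 3 genes of narrowest range. It was at 17.9, 15.4 and 13.7 CPM in sh2-Ift88 1, 2 and 3 and at 19.5, 16.1 and 34.1 CPM in control 1, 2 and 3, which puts control 1 above all 3 sh2-Ift88 libraries.

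Sv2b and Sv2c, the relatives of Sv2a, ran by group. Sv2b was at 233, 362 and 307 CPM in sh2-Ift88 1, 2 and 3, against 68.8, 162 and 63.8 CPM in control 1, 2 and 3. Sv2c was at 7.05, 6.82 and 7.81 CPM in sh2-Ift88 1, 2 and 3, against 0.545, 4.85 and 2.62 CPM in control 1, 2 and 3. Every sh2-Ift88 library lay above every control for both genes, and sh2-Ift88 3, low in Snap25, was not low in either. Set against Sv2a within a library, Sv2b stood at 7.75, 29.5 and 27.5 in sh2-Ift88 1, 2 and 3 and at 19.3, 6.63 and 1.56 in control 1, 2 and 3. These ratios overlap between the groups.

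At the active zone, 5 of 6 genes followed the pair. Bsn was at 10.8, 8.33 and 1.31 CPM in sh2-Ift88 1, 2 and 3, against 1.76, 13.2 and 43.6 CPM in control 1, 2 and 3. Pclo, its large scaffold relative, was at 8.15, 7.19 and 2.81 CPM in sh2-Ift88 1, 2 and 3, against 0.0908, 9.79 and 23.5 CPM in control 1, 2 and 3, the value of control 1 resting on 3 reads. Rims1 and Rims2, which link vesicles and calcium channels, stood at 1.87 and 5.06 CPM in sh2-Ift88 3 and both at 5.57 CPM in control 1, and their highest levels, 37.1 and 66.7 CPM, were in control 3. Unc13a, the Munc13 that primes most excitatory vesicles, was at 5.63, 4.60 and 1.56 CPM in sh2-Ift88 1, 2 and 3 and at 1.58, 6.44 and 11.9 CPM in control 1, 2 and 3. Its cerebellar relative Unc13c went by group instead: sh2-Ift88 1, 2 and 3 had 63.9, 48.1 and 34.4 CPM, against 17.1, 18.8 and 20.7 CPM in control 1, 2 and 3. The lowest sh2-Ift88 library thus lay above the highest control, and the controls, spread over a wide range for Unc13a, lay close together for Unc13c.

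Transmitter genes for both glutamate and GABA followed the pair. Slc17a7, the vesicular glutamate transporter of granule cells, was at 10.8, 6.62 and 1.56 CPM in sh2-Ift88 1, 2 and 3 and at 1.09, 11.9 and 22.2 CPM in control 1, 2 and 3. Gad1, which makes GABA, was at 25.8, 8.23 and 1.50 CPM in sh2-Ift88 1, 2 and 3 and at 2.45, 17.9 and 51.7 CPM in control 1, 2 and 3. Slc32a1, which loads GABA, had 0 reads in both sh2-Ift88 3 and control 1 (floors of 0.187 and 0.0908 CPM), against 31 to 211 reads elsewhere. Gad2 had 4 reads in sh2-Ift88 3 and 1 in control 1. The ratio of Gad1 plus Gad2 to Slc17a7 varied less, while the levels themselves differed widely: it was 2.77, 1.42 and 1.12 in sh2-Ift88 1, 2 and 3 and 2.28, 1.83 and 2.72 in control 1, 2 and 3. Slc17a6, the other vesicular glutamate transporter, had 18, 8 and 1 reads in sh2-Ift88 1, 2 and 3 and 5, 25 and 0 reads in control 1, 2 and 3. It was too low to be tested, and its pattern cannot be read at this depth.

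Of the recycling genes, Dnm1, the neuronal dynamin that cuts vesicles off the membrane, was at 38.7, 31.4 and 13.4 CPM in sh2-Ift88 1, 2 and 3 and at 23.7, 42.9 and 76.4 CPM in control 1, 2 and 3. Napb, the brain form of the adaptor through which used SNARE complexes are taken apart, stood at 8.12 CPM in sh2-Ift88 3 and 9.33 CPM in control 1, against 22.9 to 75.1 CPM in the others. Amph, amphiphysin, which brings dynamin to the vesicle neck, followed at the bottom but not at the top. It was at 90.8, 8.77 and 2.62 CPM in sh2-Ift88 1, 2 and 3, against 1.58, 18.4 and 17.4 CPM in control 1, 2 and 3. The same library, sh2-Ift88 1, had 1389 CPM of the choroid plexus gene Ttr, against 0.0494 to 0.739 CPM in the others, and 198 CPM of the granule cell gene Cbln1, against 0.187 to 41.1 CPM. The part of either in the Amph level was not tested.

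**Figure D2:**
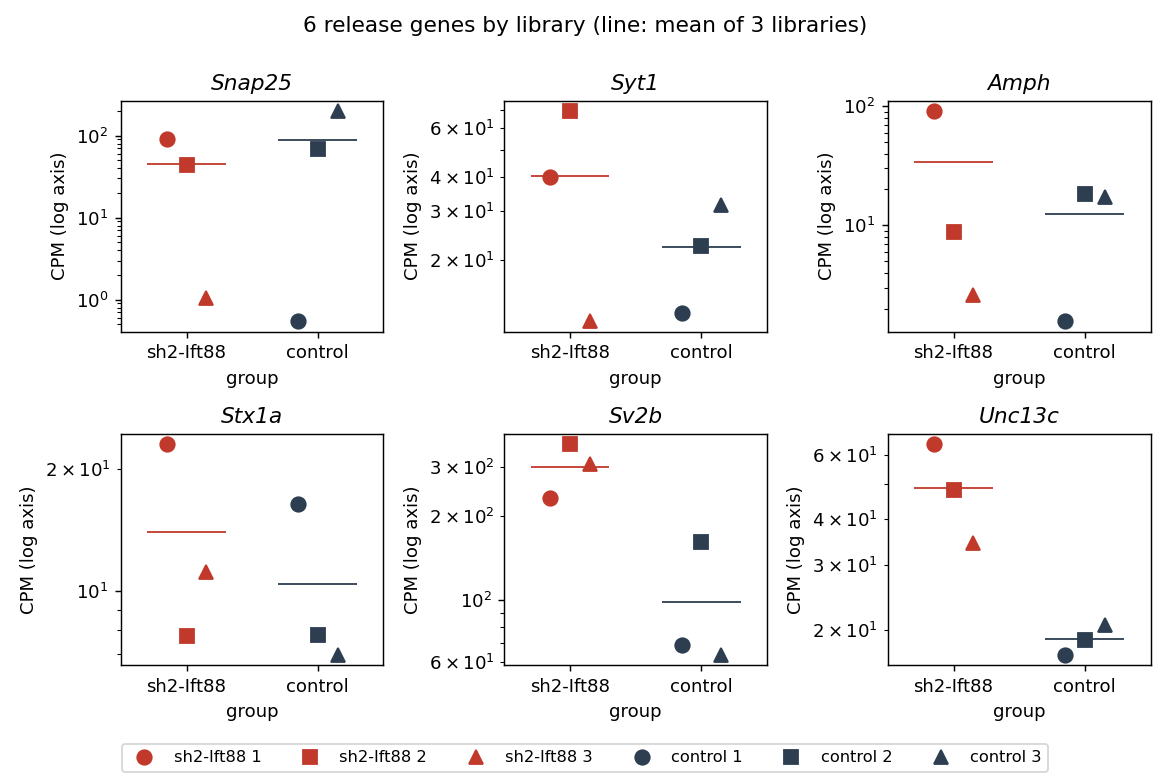
Levels of 6 release genes in CPM (log axis), with 1 marker per library and a line for the mean of the 3 libraries of a group; shapes number the libraries within a group and pair none of them. Snap25, Syt1 and Amph have their 2 lowest points in sh2-Ift88 3 and control 1, Stx1a is lowest in control 3, and for Sv2b and Unc13c all sh2-Ift88 points lie above all control points.

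Between the groups, no release gene passed the test. Of 16768 genes tested with edgeR's quasi-likelihood test, 0 were called higher and 0 lower at an adjusted p of 0.05 (0.00% each way), and the smallest adjusted p was 0.9995. Of the 33 release genes 32 passed the filter on low counts, and 0 were called. At an unadjusted p of 0.05, 2 release genes were higher and 0 lower, against 1.97% higher and 1.26% lower over all genes. DESeq2 called 1 release gene, Unc13c (0.268% of all genes were called higher and 0.0775% lower), and limma-voom called 0. Without the filter on low counts edgeR called 0 release genes, against 0.0161% of all genes higher and 0.00323% lower. The log2 fold change of sh2-Ift88 over control was above 0 for 6 and below 0 for 26 of the 32 genes, with a median of -0.73, where that of all genes tested was -0.01. That median rests on control 3, the library richest in these genes: without it, the median was 0.23. Without both low libraries together, sh2-Ift88 3 and control 1, it was -0.66.

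The sizes show how wide the spread was. Snap25 averaged 45.2 ± 44.7 CPM in sh2-Ift88 libraries and 89.2 ± 101 CPM in controls (SD, n = 3 each), a log2 fold change of -0.98 ± 1.71. (standard error) Bsn had the most negative value, -1.51 ± 1.12 (standard error). Gad1 had -1.02 ± 1.18 and Slc17a7 had -0.89 ± 1.03. For these genes both groups hold a library near the bottom, and the groups overlap.

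The 3 genes with the smallest p were Unc13c, Sv2b and Sv2c, and these 3 were also those with every sh2-Ift88 library above every control. Over all genes tested, 4.70% had that separation upward and 3.69% downward, and 0 release genes had it downward. Unc13c averaged 48.8 ± 14.8 CPM in sh2-Ift88 libraries and 18.9 ± 1.79 CPM in controls (SD, n = 3 each), a log2 fold change of 1.37 ± 0.29 (standard error) (edgeR adjusted p = 0.9995). Sv2b averaged 300.7 ± 64.8 CPM in sh2-Ift88 libraries and 98.2 ± 55.2 CPM in controls, a log2 fold change of 1.62 ± 0.42. (standard error) Sv2c averaged 7.23 ± 0.517 CPM in sh2-Ift88 libraries and 2.67 ± 2.15 CPM in controls, a log2 fold change of 1.44 ± 0.73. (standard error) Separation of Unc13c and Sv2c hangs on the scaling of sh2-Ift88 3. By library totals alone, Unc13c had 20.6 CPM in that library against 25.6 CPM in control 3, and Sv2c had 4.67 CPM against 5.35 CPM in control 2. Sv2b stayed apart by totals, with 184 CPM in sh2-Ift88 3, its lowest there, against 179 CPM in control 2. With DESeq2, Unc13c had an adjusted p of 0.0333, and over the 14 alternatives its adjusted p ran from there to 0.9999.

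**Figure D3:**
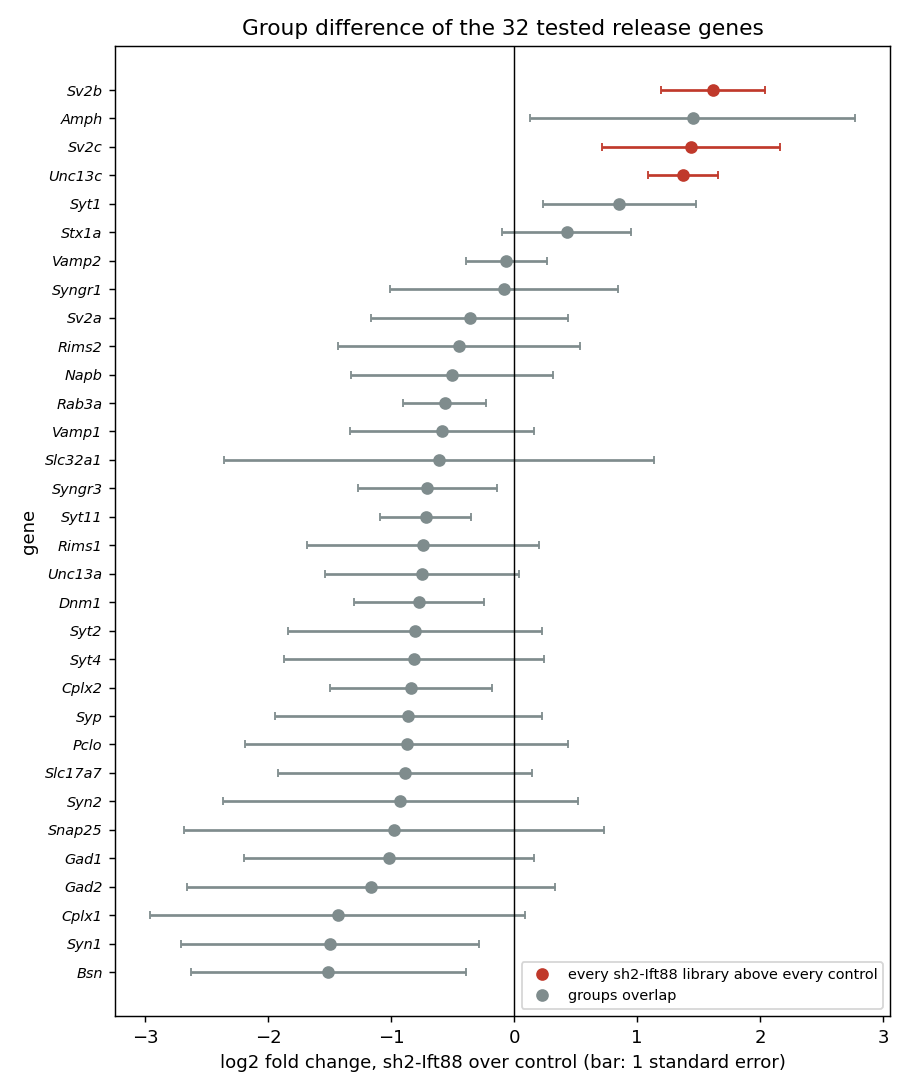
Log2 fold changes of the 32 tested release genes, sh2-Ift88 over control, from edgeR, with bars of 1 standard error. Sv2b, Sv2c and Unc13c (red), at 1.62, 1.44 and 1.37, are the genes whose groups do not overlap, and 26 of 32 points lie below 0 with bars that mostly reach across it.

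The other genes of neuronal release, from a list of 41, repeated the split between libraries. Of its 37 tested genes 21 had sh2-Ift88 3 and control 1 at the bottom (56.8%), and 0 were called between the groups in either direction; 10 had a log2 fold change above 0 and 27 below (median -0.44). The priming gene Cadps2 was at 12.9, 10.2 and 0.625 CPM in sh2-Ift88 1, 2 and 3, against 0.0908, 11.5 and 40.8 CPM in control 1, 2 and 3. Rph3a, a Rab3 effector, was at 0.312 CPM in sh2-Ift88 3 and had 0 reads in control 1. Others did not follow: Cadps, the close relative of Cadps2, was at 303, 637 and 353 CPM in sh2-Ift88 1, 2 and 3, against 408, 412 and 66.3 CPM in control 1, 2 and 3, and Unc13b was at 489, 263 and 221 CPM in sh2-Ift88 1, 2 and 3, against 192, 462 and 28.7 CPM in control 1, 2 and 3. For both, control 3, at the top for Unc13a, was the lowest library. The 3 genes of smallest p were Syt9 (log2 fold change 1.40, standard error 0.65), Nsf, the ATPase that takes SNARE complexes apart (-0.44, 0.22), and Lin7a (-0.91, 0.48).

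The list of SNARE proteins of general membrane traffic did not share the split. It also holds genes of other roles in traffic, among them Napa and Stxbp3a, which do not encode SNARE proteins. Among 37 tested genes 1, Napa, had the pair at the bottom (2.70%), and 0 were called between the groups, with 19 log2 fold changes above 0 and 18 below (median 0.00). Snap23, the general relative of Snap25, was at 32.1, 42.9 and 38.2 CPM in sh2-Ift88 1, 2 and 3 and at 58.2, 38.8 and 27.7 CPM in control 1, 2 and 3. Its highest level thus fell in control 1, where Snap25 had 18 reads. Of smallest p were Stxbp3a (log2 fold change -0.74, standard error 0.25, with every sh2-Ift88 library below every control), Stx7 (0.60, 0.29) and Bet1l (0.51, 0.29). In the list of endocytosis and vesicle recycling, 7 of 27 tested genes had the pair at the bottom (25.9%), among them the neuronal Snap91, Dnm3 and Pacsin1, and 0 were called (10 above 0, 17 below, median -0.08). Its genes of smallest p were Pacsin2 (0.47, 0.23), Dnajc6 (-1.05, 0.53) and Dnm2 (-0.30, 0.21).

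On the receiving side of the synapse, 20 of 31 tested postsynaptic genes had the pair at the bottom (64.5%), and 0 were called (9 above 0, 22 below, median -0.34). Gabra6, a GABA receptor subunit of granule cells, was at 21.2, 18.4 and 0.312 CPM in sh2-Ift88 1, 2 and 3, against 0, 17.3 and 77.3 CPM in control 1, 2 and 3. Homer2, a scaffold of glutamate receptors, had the smallest p of the list, with 2.97, 1.68 and 3.12 CPM in sh2-Ift88 1, 2 and 3 against 0.333, 0.520 and 0.841 CPM in control 1, 2 and 3 (log2 fold change 2.18, standard error 0.58). Next were Gphn (-0.38, 0.23) and Homer3 (0.41, 0.28). Rest, whose protein reads the element part printed above, had 121, 144 and 153 CPM in sh2-Ift88 1, 2 and 3 and 137, 148 and 106 CPM in control 1, 2 and 3. The list of REST and its corepressors also holds Srrm4, which is a splicing factor gene and not a corepressor gene. Of its 10 genes 1, Srrm4, had the pair at the bottom, and 0 were called (4 above 0, 6 below, median -0.13). Hdac2 (0.64, 0.31), Rcor1 (-0.63, 0.34) and Srrm4 (-0.61, 0.59) had the smallest p.

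Most general neuron, granule cell and Purkinje cell markers moved with the release genes. Of general neuron markers 9 of 14 tested had sh2-Ift88 3 and control 1 at the bottom, of granule cell markers 9 of 12 and of Purkinje cell markers 9 of 12. Gad1, on the Purkinje list, is itself a release gene. The lists share further genes with the pair at the bottom and are not separate counts. Gabra6 and Grin2c are postsynaptic and granule cell genes here, and Pvalb is on the Purkinje and interneuron lists. Zic1 is on the granule cell and progenitor lists, and Cspg4 on the oligodendrocyte and mural lists. Summed levels of granule cell markers were 115 to 519 CPM in sh2-Ift88 libraries and 77.5 to 641 CPM in controls, and those of Purkinje cell markers 656 to 902 CPM in sh2-Ift88 libraries and 420 to 1195 CPM in controls. Rbfox3, a marker of mature neurons, was at 5.43, 3.02 and 0.687 CPM in sh2-Ift88 1, 2 and 3, against 0.121, 4.10 and 12.6 CPM in control 1, 2 and 3. Itpr1 and Rora carry most of the Purkinje sum in all 6 libraries, and the other 10 markers summed to 144, 56.8 and 19.9 CPM in sh2-Ift88 1, 2 and 3 and to 3.51, 104 and 349 CPM in control 1, 2 and 3. Summed general neuron markers were 159 to 264 CPM in sh2-Ift88 libraries and 158 to 529 CPM in controls. Among defining markers, Ppp1r17 and Pcp4 of Purkinje cells had 0 reads in both sh2-Ift88 3 and control 1, and Gabra6 and Barhl1 of granule cells and Slc1a6 of Purkinje cells had 0 in control 1. Calb1, Rora and Foxp2 of Purkinje cells and Etv1, Pax6 and Zic2 of granule cells did not have the pair at the bottom. Calb1 was at 30.95, 10.7 and 16.1 CPM in sh2-Ift88 1, 2 and 3, against 0.151, 21.3 and 77.45 CPM in control 1, 2 and 3. It thus carries most of the sum of the other 10 markers in sh2-Ift88 3. Of the general neuron markers without the pair at the bottom, Tubb3 was highest in sh2-Ift88 3 (25.0 CPM) and lowest in control 3 (7.79 CPM), and Stmn2 was at 7.58, 5.75 and 1.06 CPM in sh2-Ift88 1, 2 and 3 against 40.2, 8.78 and 61.4 CPM in control 1, 2 and 3.

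Markers of other normal cells shared the split in part. Of oligodendrocyte markers 8 of 11 tested had the pair at the bottom, of astrocyte markers 5 of 10, of inhibitory interneuron markers 3 of 6 and of microglia markers 6 of 10. Mbp, of myelin, was at 14.5, 24.3 and 0.875 CPM in sh2-Ift88 1, 2 and 3, against 1.12, 32.3 and 88.7 CPM in control 1, 2 and 3, and the astrocyte gene Aqp4 at 47.3, 64.9 and 1.62 CPM in sh2-Ift88 1, 2 and 3, against 0.151, 46.7 and 132 CPM in control 1, 2 and 3. Among markers of endothelium and mural cells 3 of 10 had the pair at the bottom, of fibroblasts 1 of 7, of ependyma and choroid plexus 1 of 6, and of progenitors and tumour 2 of 10. The part of any of these cells in the levels of the release genes was not tested. Summed over 12 oligodendrocyte markers, levels were 345 to 730 CPM in sh2-Ift88 libraries and 371 to 758 CPM in controls. Pdgfra, which the fibroblast list also holds, carries much of these sums, and the other 11 markers summed to 114, 135 and 67.8 CPM in sh2-Ift88 1, 2 and 3 and to 28.5, 136 and 277 CPM in control 1, 2 and 3. Of these 11, Bcas1 ran by group instead. It was at 41.3, 26.5 and 40.0 CPM in sh2-Ift88 1, 2 and 3, against 3.24, 5.59 and 8.13 CPM in control 1, 2 and 3. Bcas1 thus carries much of the sum in sh2-Ift88 3. Summed astrocyte markers were 447 to 965 CPM in sh2-Ift88 libraries and 382 to 895 CPM in controls. Microglia markers summed to 86.7 to 227 CPM in sh2-Ift88 libraries and 157 to 196 CPM in controls. Interneuron markers summed to 107 to 147 CPM in sh2-Ift88 libraries and 89.6 to 160 CPM in controls. Kit carries most of the interneuron sum in every library but control 3. It was at 98.1, 94.2 and 99.1 CPM in sh2-Ift88 1, 2 and 3, against 155, 62.3 and 63.7 CPM in control 1, 2 and 3. Endothelial and mural markers summed to 258 to 346 CPM in sh2-Ift88 libraries and 168 to 455 CPM in controls, and fibroblast markers to 2495 to 3715 CPM in sh2-Ift88 libraries and 2718 to 3506 CPM in controls. Markers of ependyma and choroid plexus summed to 327 to 1743 CPM in sh2-Ift88 libraries and 53.3 to 463 CPM in controls. Ttr carries most of that sum in sh2-Ift88 1, and Otx2 carries most of it in every other library. Otx2 was at 272, 309 and 260 CPM in sh2-Ift88 1, 2 and 3, against 337, 427 and 31.3 CPM in control 1, 2 and 3. Progenitor and tumour markers summed to 3165 to 4858 CPM in sh2-Ift88 libraries and 3130 to 4777 CPM in controls. Among these, Sox10 had 0 reads in sh2-Ift88 1 and 3, Olig1 and Grm2 had 0 in sh2-Ift88 3, Sst had 0 in sh2-Ift88 3 and control 1, Slc6a5, Pax2 and Ccdc153 had 0 in control 1, and Atoh1 and Olig3, of rhombic lip progenitors, had 0 in sh2-Ift88 1 and in control 1 and 3; Olig3 had 0 in sh2-Ift88 2 as well.

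**Figure D4:**
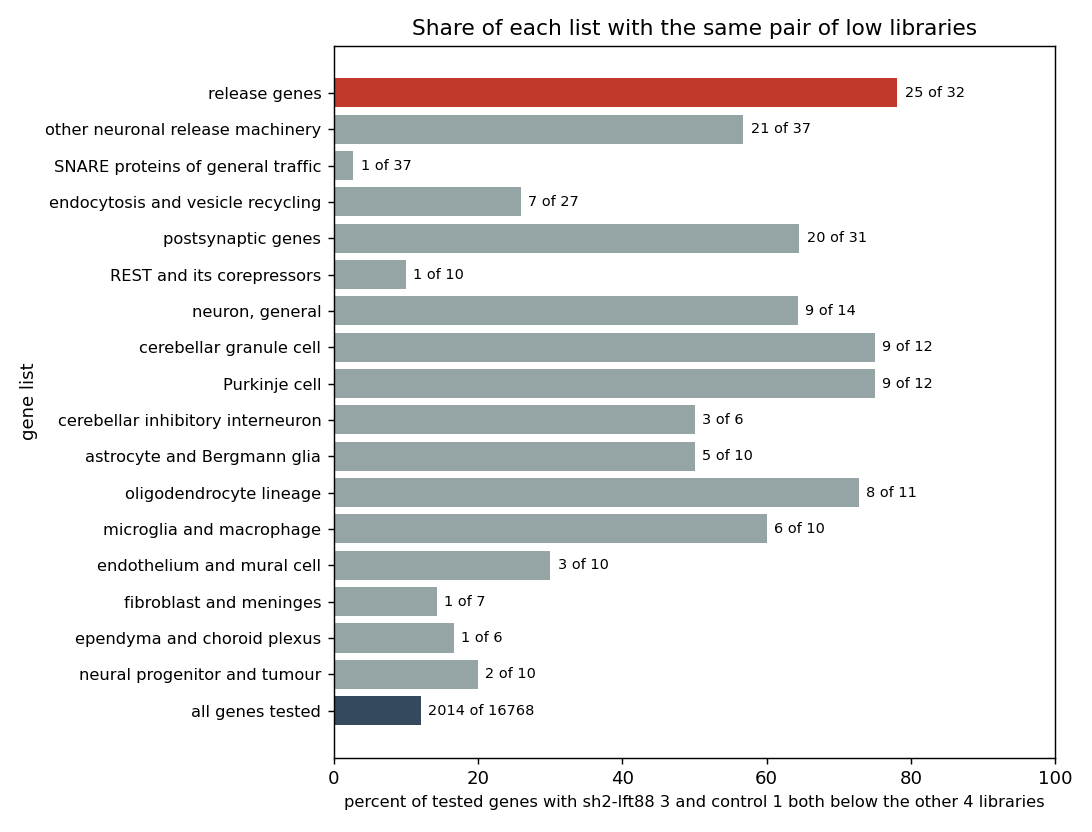
Bars give the percentage of tested genes in each list whose levels in sh2-Ift88 3 and control 1 were both below those of the other 4 libraries, with counts at the bar ends. The release genes (25 of 32) have the longest bar. Granule cell and Purkinje cell markers (9 of 12 each), oligodendrocyte markers (8 of 11), general neuron markers (9 of 14) and microglia markers (6 of 10) also have long bars. Inhibitory interneuron markers stand at 3 of 6. The list of SNARE proteins of general traffic (1 of 37) has a short bar, and all genes tested stand at 12%.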

How the data were processed

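RNA-seq libraries came from a stranded TruSeq kit for total RNA, per the labels' protocols. The submitters' processing notes name BWA and mm9; the sources used here do not give the counting program, annotation, strand setting or handling of reads with several matches, so overlapping, antisense and near-identical genes are uncertain. As deposited by the authors, each library has 1 table of whole-number read counts by gene symbol. Its 5 closing tallies were left out, and reads outside any feature were 18.8% to 39.5% of the total. Library sums ran from 26802618 to 33772559 counts.

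Counts were filtered with filterByExpr (16768 genes left), scaled with TMM and tested with edgeR 4.0.16 in R 4.3.3 (glmQLFit with robust=TRUE, glmQLFTest, two-sided, Benjamini-Hochberg over all genes tested, threshold 0.05), 3 sh2-Ift88 against 3 control libraries with no covariate. The standard error is the log2 fold change divided by the root of the test's F. CPM here used TMM-scaled library sizes of the tested genes, also for genes outside the test. The log scale of the heat map used a pseudocount of 0.5 CPM. Alternatives used DESeq2 1.42.0, limma 3.58.1, other scalings and filters, and libraries left out. Fits were tested on simulated counts with a spread set low enough for known folds to be recovered. That check does not show how the fits perform at the spread of these libraries.

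Groups came from the sample descriptions, and library numbers follow accession order and pair nothing. No pair of libraries agreed within sampling noise. The members, the companion and marker lists and the alternatives were chosen with earlier results of these data known. Named were all 33 members, Ift88, the 3 genes of smallest p in each companion list and, chosen after their values were seen, the further genes of the companion and marker lists given as examples. The NRF-1 motif was shortened to its core after a longer form, which Bsn held and Syn1 did not, had been searched.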

Additional observations from a re-analysis of the deposited data

How the results depend on the processing

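Over all genes, DESeq2 called 45 higher and 13 lower and edgeR without a filter 5 higher and 1 lower; each of the other 12 alternatives called 0 both ways. Among the release genes DESeq2 called 1 higher (Unc13c, log2 fold change 1.34), and all other alternatives called 0; 0 were called lower under any. The median log2 fold change of the release genes ran from -1.15 to 0.23 with libraries left out in turn (0.23 without control 3), and otherwise from -0.96 by library totals alone, where the median of all genes moved to -0.33, to -0.17 with limma-voom. The count of 25 genes with the same pair of low libraries was 25 with DESeq2 size factors, 26 by library totals alone (Unc13c added), where the share of all genes was 21.5% in place of 12%, and 25 of the 32 genes at 1 CPM or more in at least 3 libraries.

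With limma-voom the log2 fold change changed sign for 7 release genes: Snap25 (0.15), Syt2 (0.24), Syngr1 (0.24), Sv2a (0.11), Pclo (0.95), Slc32a1 (0.27) and Gad2 (0.11), none called; the cause was not tested. With libraries left out, 15 of the 32 changed sign without control 3. The ranges over these fits were -2.02 to 0.41 for Snap25, -1.08 to 0.22 for Vamp1, -0.28 to 0.11 for Vamp2, -1.36 to 0.56 for Syt2, -1.50 to 0.41 for Syt4, -2.48 to 0.13 for Cplx1, -1.94 to 0.53 for Syn2, -1.78 to 0.23 for Syp, -0.84 to 0.93 for Syngr1, -1.0 to 0.35 for Sv2a, -1.51 to 0.64 for Rims2, -1.46 to 0.30 for Pclo, -2.08 to 0.97 for Slc32a1, -2.33 to 0.22 for Gad1 and -1.05 to 0.64 for Napb. Stx1a ran from -0.15 and Amph from -1.15 without sh2-Ift88 1, to 1.04 and 1.96. Ift88 ran from -0.16 to 0.13, Unc13c from 1.10 to 1.53 and Sv2b from 1.38 to 2.17. At 3 libraries a group with this spread, and with 0 to 18 reads for genes such as Slc32a1 and Snap25 in 2 libraries, the interval of most differences is wide. No paired analysis was possible because the labels give no replicate numbers.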
